A study of Mus musculus with 36 samples.

Results

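Single-strand DNA breaks (SSBs) in the heart of old mice were examined in 2 libraries, heart replicates 1 and 2, chosen because their labels name heart as the tissue and SSB as the assay. They are 2 of the 36 samples of the series as given, and they were set against the 10 SSB libraries of bone marrow, brain, liver, sperm and the mononuclear cells of peripheral blood (PBMCs), with 2 libraries of each tissue. All of these libraries came from male mice of the inbred strain C57BL/6J, aged 24 months, with no treatment named, so there was no young or treated group among them. Per the labels 2 mice gave the material for all tissues, and nothing states that the same replicate number stands for the same animal in each tissue. The p-values of edgeR and DESeq2 rest on the spread between the 2 libraries of each tissue. Those of the permutation tests rest on the spread over all 12 libraries, tissues included, and the libraries were shuffled singly and not by tissue.

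An SSB is a gap in one strand of the double helix. It can be left by oxidative damage to a sugar, by the repair of a damaged base, or by a topoisomerase that did not reseal the strand it had opened. Heart muscle cells rarely divide in adult life and respire heavily, so their DNA is seldom replicated and the main source of oxidants, the mitochondrion, takes up much of the cell. SSiNGLe, the assay used here to map such breaks to the nucleotide, tags the free end left at a break and reads the nucleotide at which it lies. In a whole organ the breaks of heart muscle cells, fibroblasts, endothelial cells and blood cells are read together and cannot be told apart.

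Each library was a list of nucleotides at which an SSB was found, with the strand and a count. Heart replicate 1 held 446381 SSB positions and heart replicate 2 held 1041983, the most of all 12 SSB libraries, whose lowest was 225011. The other 2 heart libraries used were maps of abasic (AP) sites, which are sugar residues that have lost their base. At this depth a gene that entered the test held a median of 3 positions in heart replicate 1 and 6 in heart replicate 2, and a window of 100 kb held 16 and 38. Lists of breaks carry no expression, so the tissue labels could not be checked against marker genes here. Sperm DNA was purified with a different kit from that of heart and the other tissues, and the effect of the kit cannot be told apart from that of the tissue.

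The first comparison asked which genes took another share of the SSBs in heart than in the other tissues. Of 38486 genes tested, 3 had a higher share in heart and none a lower one (edgeR quasi-likelihood test of heart against the mean of the 5 other tissues, Benjamini-Hochberg adjusted), which is 0.0078% of genes. They were Dmd, Ptprm and Nxnl1. Before adjustment, 2000 genes (5.2%) were higher in heart and 275 (0.715%) were lower at a p under 0.05. DESeq2, run on the same table, passed none, and 101 of its genes had an unadjusted p under 0.05. With every library thinned to 225011 positions edgeR also passed none, and 1333 genes had an unadjusted p under 0.05. The median log2 difference over all genes was 0.20 on this scale rather than 0, and it was 0.09 over the 3230 genes with a mean of at least 20 positions, so every log2 difference below should be read against that shift.

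Dmd (gene ID 13405) encodes dystrophin, the rod-shaped protein that ties the contractile apparatus of skeletal and heart muscle to the membrane and whose loss causes muscular dystrophy with cardiomyopathy. It spans 2390 kb of the X chromosome, at chrX:82814664-85205050 (GRCm38), and male mice carry a single copy. The gene held 141 SSB positions in heart replicate 1 and 309 in heart replicate 2. It held 80 and 61 in bone marrow, 72 and 188 in brain, 117 and 190 in liver, 58 and 70 in PBMCs, and 74 and 50 in sperm. Scaled to gene length and library size, as SSB positions per kilobase of gene and per 1000000 positions of the library (LPKM), the heart level was 0.132 and 0.124. The 10 other libraries lay between 0.0730 and 0.122, with a mean of 0.0971 ± 0.0175 (SD, n = 10). Both heart libraries were therefore above every other library, although liver replicate 2, at 0.122, was close to heart replicate 2. The mean level in heart was 1.32 times that of the others, and the log2 difference was 0.49 with an SE of 0.097 (edgeR, adjusted p = 0.0159).

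When Dmd was divided into 10 equal parts, the heart mean was above that of the other libraries in 10 of the 10, with ratios from 1.03 to 1.86 and a median of 1.28. As the gene was picked for its higher total, this is a description, and in 4 of the parts 1 of the heart libraries lay below the mean of the others. Breaks fell on both strands, 53.9% and 53.1% of them on the strand with the sign of the gene in the 2 heart libraries. In Dmd 1 position in heart replicate 1 and 2 in heart replicate 2 had a count above 1. The X chromosome as a whole took 1.82% and 1.83% of all SSB positions in heart and 1.67% ± 0.182 (SD, n = 10) in the others, and it did not pass (exact permutation test, two-sided, p = 0.182, adjusted p = 0.985). Brain replicate 2 was above heart replicate 1, and sperm was lowest, at 1.32% and 1.38%. As a share of the positions of the X chromosome alone, Dmd held 1.74% and 1.62% in heart and 1.39% ± 0.183 (SD, n = 10) in the others, a ratio of 1.20, and liver replicate 2, at 1.66%, was above heart replicate 2. The call for Dmd was made in 7 of 26 alternative fits, in which its log2 difference stayed between 0.37 and 0.56 and its adjusted p between 0.00267 and 1.0. With 1 library left out it passed without bone marrow replicate 2, brain replicate 2, liver replicate 2 or PBMC replicate 1, and missed when any of the other 8 was left out, each heart library included.

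Ptprm (gene ID 19274) encodes the receptor tyrosine phosphatase mu, a protein of cell contacts that binds its own kind on the neighbouring cell. It lies at chr17:66666848-67354491. It held 212 and 469 SSB positions in heart, 162 and 84 in bone marrow, 121 and 265 in brain, 178 and 248 in liver, 89 and 100 in PBMCs, and 153 and 115 in sperm. The level was 0.691 and 0.655 LPKM in heart and 0.545 ± 0.044 (SD, n = 10) in the others, with a range of 0.476 to 0.600. The groups did not overlap. The log2 difference was 0.39 with an SE of 0.083 (edgeR, adjusted p = 0.0497). The heart mean was above that of the other libraries in 9 of 10 equal parts of the gene, at ratios from 0.88 to 1.57. As Ptprm too was picked for its higher total, this is a description. In the parts numbered 5 and 8 from the gene's start a heart library lay below the mean of the others. Ptprm held 1.17% and 1.12% of the positions of chromosome 17 in heart against 0.804% to 1.07% in the others.

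Nxnl1 (gene ID 234404), at chr8:71560555-71566649, encodes a thioredoxin-like protein known as a survival factor of the retina. It is 6.10 kb long, and its difference rested on few breaks. Heart held 6 and 12 positions and brain 2 and 4. Bone marrow replicate 1 held 1 and liver replicate 2 held 2, and the other 6 libraries held none. The level was 2.21 and 1.89 LPKM in heart and at most 0.948 in any other library, a brain one (log2 difference 3.57, SE 0.77, edgeR, adjusted p = 0.0497). Ptprm and Nxnl1 each passed in 2 alternative fits besides the one given here, Ptprm with the replicate block or without PBMC replicate 1, and Nxnl1 with no filter on low counts or without liver replicate 2. Their log2 differences lay between 0.25 and 0.41 and between 2.39 and 4.16.

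**Figure D1:**
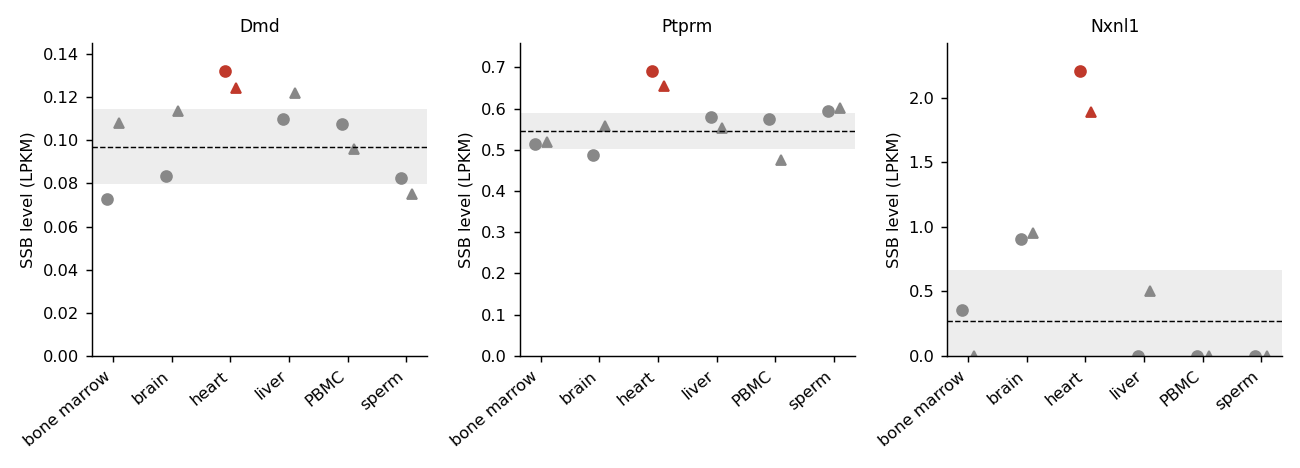
SSB level in LPKM (vertical axes, SSB positions per kilobase of gene and per 1000000 positions) of Dmd, Ptprm and Nxnl1 in the 12 SSB libraries by tissue (horizontal axes). Circles are replicate 1 and triangles replicate 2, heart is in red, and the dashed line and band give the mean ± SD of the 10 other libraries; both heart points lie above all others in each panel, closest in Dmd, where liver replicate 2 reached 0.122.

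None of these 3 genes stood out in the AP maps of heart. The AP level of Dmd was 0.0933 and 0.112 LPKM in heart, inside the range of 0.0764 to 0.127 in the other tissues. The log2 difference of AP positions was 0.08 for Dmd, 0.10 for Ptprm and 0.56 for Nxnl1, each with an adjusted p of 1.0 in edgeR. Over 41374 genes tested for AP sites none passed (0%), and 1230 were higher (2.97%) and 464 lower (1.12%) at an unadjusted p under 0.05. The difference between the SSB and the AP contrast was not tested.

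Below the threshold, the genes next in order on the higher side were Susd6, which encodes a membrane protein with a sushi domain, and the predicted gene Gm36566. Susd6 had 0.918 and 0.903 LPKM in heart and 0.306 to 0.797 elsewhere (log2 difference 0.77, edgeR adjusted p = 0.127). Gm36566 had 6.80 and 3.88 LPKM in heart and up to 4.29 elsewhere (adjusted p = 0.223), so its groups overlapped. On the lower side came Traf5, an adaptor of tumour necrosis factor receptors, at 0.188 and 0.131 LPKM in heart and 0.222 to 0.464 elsewhere (log2 difference -1.11, adjusted p = 0.597). Itgb3, the beta 3 integrin of platelets and vessels, had 0.359 and 0.369 LPKM in heart and 0.462 to 1.09 elsewhere (log2 difference -0.81, adjusted p = 0.655). Alg11, an enzyme of N-glycan assembly, and the predicted gene Gm35828 held 0 positions in both heart libraries, and Gm41410 had 0.499 and 0.214 LPKM against 0.750 to 1.64. None of these 5 passed.

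The 10 genes with the most SSB positions in heart had mean levels there close to the mean of the other libraries. Sfi1, which encodes a centrosomal protein and lies at chr11:3131850-3203347, held 532 and 1116 positions, or 16.67 and 14.98 LPKM, against 16.4 ± 1.32 (SD, n = 10) in the other libraries. The next 9 by number of positions, Lsamp, Rbfox1, Macrod2, Csmd1, Cdh13, Nrxn3, Tenm2, Dlg2 and Ptprd, are very long genes, most of them for proteins of neurons and synapses. Their levels in heart lay between 0.284 LPKM (Ptprd, replicate 1) and 0.584 LPKM (Cdh13, replicate 1). None of the 10 passed against the mean of the other tissues, and the largest log2 difference among them was 0.17 (Rbfox1, edgeR adjusted p = 0.780). Single tissues could differ more. Ptprd had 0.190 and 0.220 LPKM in bone marrow, beside 0.284 and 0.287 in heart (log2 difference 0.69, edgeR adjusted p = 1.2e-05 against bone marrow alone).

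A list of 60 cardiac muscle genes was then taken, all of which were tested. Of these, 1 (Dmd) passed and 12 were higher at an unadjusted p under 0.05, where 5.2% of all genes were, with 0 lower. Their median log2 difference was 0.17, beside 0.20 over all genes. Among genes with a mean of at least 20 positions, 7 of 27 were higher at that p, beside 339 of 3230 of all genes, and the median was 0.14 beside 0.09. Together the 60 genes took 5164 and 5207 per 1000000 SSB positions of the library (parts per 1000000, ppm) in heart and 4957 ± 172 (SD, n = 10) elsewhere. The highest of the other libraries had 5148, so both heart libraries were above all 10. Without Dmd the remaining genes took 4848 and 4911 ppm in heart and at most 4909 elsewhere, so that heart replicate 1 then fell among the others.

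Among the cardiac genes with the most heart positions, Dmd alone passed. Among the proteins of the contractile apparatus, titin (Ttn), the giant spring of the sarcomere, had 0.651 and 0.699 LPKM in heart and 0.706 ± 0.0667 (SD, n = 10) elsewhere. Palladin (Palld), which crosslinks actin, had 0.618 and 0.567 LPKM in heart and 0.449 to 0.587 elsewhere, with a log2 difference of 0.31, the largest after Dmd among the cardiac genes named for their heart positions (edgeR, adjusted p = 0.714). The formin Fhod3 and the Z-disc proteins Nebl and Sorbs2 had log2 differences of 0.22, 0.19 and 0.17, none of which passed.

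Genes of calcium handling and excitation did not pass either. The calcium release channel Ryr2 had 0.445 and 0.490 LPKM in heart and 0.479 ± 0.0495 (SD, n = 10) elsewhere. The L-type calcium channel subunits Cacna1c and Cacnb2 had log2 differences of 0.14 and 0.04, and the sodium-calcium exchanger Slc8a1 had 0.10. The potassium channel Kcnq1 and the phosphodiesterase Pde3a had 0.13 and 0.05. Sgcd, the delta-sarcoglycan that sits with dystrophin in the membrane, had 0.389 and 0.360 LPKM in heart and 0.274 to 0.391 elsewhere (log2 difference 0.23, adjusted p = 0.774). Ctnna3, an alpha-catenin of the intercalated disc, had a log2 difference of 0.13.

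The energy metabolism of heart was taken as 40 genes of fatty acid oxidation and the respiratory chain. None passed, 1 was higher at an unadjusted p under 0.05, and the median log2 difference was 0.15. They took 1326 and 1322 ppm in heart and 1324 ± 104 (SD, n = 10) elsewhere. Ppargc1a, the coactivator that drives the making of mitochondria, had 0.522 and 0.545 LPKM against 0.553 ± 0.0848 (SD, n = 10). Markers of the endothelial cells and fibroblasts that share the organ, 30 genes, took 1384 and 1384 ppm in heart and a mean of 1386 elsewhere. None passed, and 4 were higher at an unadjusted p under 0.05.

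Lists for other tissues and processes served as a comparison, and none of their genes passed. Their counts at an unadjusted p under 0.05 stand beside the 5.2% of all genes that were higher and the 0.715% that were lower at that p. Hepatocyte genes took 428 and 442 ppm in heart beside a mean of 418 elsewhere, with 2 of 30 higher, and genes of blood and immune cells took 1192 and 1160 beside 1209, with 0 of 29 higher. Giant neuronal and fragile-site genes, 54 in number, took 24080 and 24270 ppm in heart beside 24040, and 17 of them were higher at that p and 0 lower. All 54 had a mean of at least 20 positions, where 339 of 3230 of all genes were higher and 7 of 27 of the cardiac genes. Genes of single-strand break repair numbered 29, of which 3 were higher and 1, Tdp1, the enzyme that removes stalled topoisomerase from a DNA end, was lower at that p (log2 difference -0.50, adjusted p = 0.783). Of 28 genes of sperm formation and 31 immediate early genes, 2 each were higher at that p and 0 lower. For all of these lists except cardiac muscle at least 1 heart library lay within the range of the other 10.

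**Figure D2:**
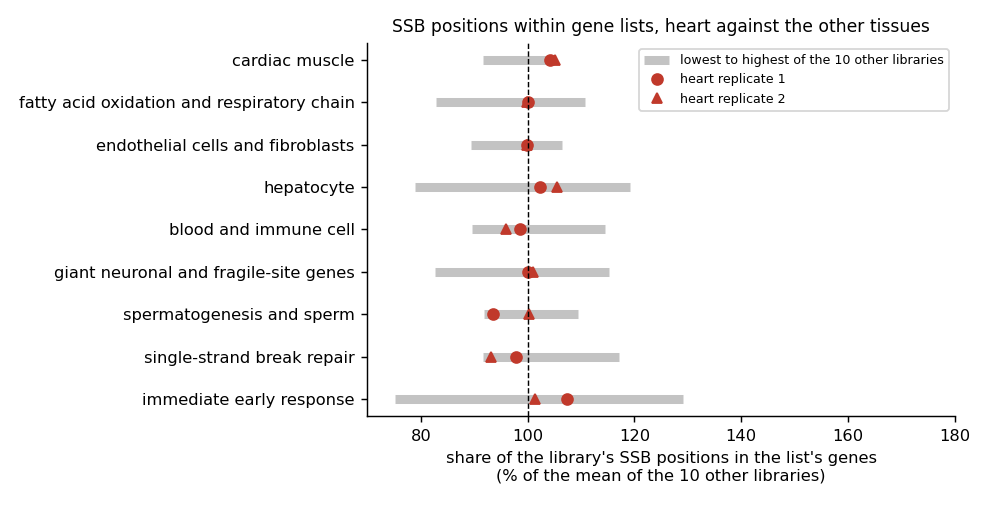
Share of a library's SSB positions that fell in the genes of each of 9 lists, as a percentage of the mean of the 10 other libraries (horizontal axis), for heart replicate 1 (red circle) and replicate 2 (red triangle); the grey bar runs from the lowest to the highest of the other libraries. For the cardiac muscle list both heart points lie past the end of the bar, and for the other 8 lists at least 1 lies on it.

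The second comparison covered DNA outside genes, by dividing the genome into windows of 100 kb. None of 25925 windows passed (0%) with edgeR or with DESeq2, while edgeR gave 917 higher (3.54%) and 600 lower (2.31%) at an unadjusted p under 0.05. DESeq2 gave 79 in either direction. The smallest adjusted p was 0.124. It belonged to the window chr12:97000001-97100000, which holds no annotated gene. Heart had 27 and 33 positions there, or 60.5 and 31.7 ppm, and the others had 6.54 to 47.0 ppm with a mean of 19.4 ± 12.1 (SD, n = 10). Brain replicate 1, at 47.0, was above heart replicate 2, so the groups overlapped. The log2 difference was 1.27 with an SE of 0.278, and it passed in 4 of the alternative fits, the strongest with summed counts in place of positions (edgeR, adjusted p = 7e-06).

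Much of the difference in that window came from a short stretch. The 1 kb bin at chr12:97061001-97062000, chosen after its values were seen, held 43.3% of the heart positions of the window. Heart had 11 and 15 positions in it, brain 7 and 8, liver 3 and 4, PBMC replicate 2 had 1, and the other libraries had 0. Scaled to library size, heart had 24.6 and 14.4 ppm, brain 19.4 and 11.6, and liver 6.73 and 6.14. All 26 heart positions were on the minus strand and lay within 177 bp, from 97061462 to 97061638. Of the brain positions, 6 and 8 lay in the same 177 bp, as did 3 and 4 of liver, and all of these were on the minus strand as well. Several of the heart nucleotides had been counted more than once, since the summed counts were 16 and 28. Outside that bin the window had 35.8 and 17.3 ppm in heart and 6.54 to 27.7 in the others. In the AP maps the bin held 1 and 2 positions in heart and 1 and 3 in brain.

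**Figure D3:**
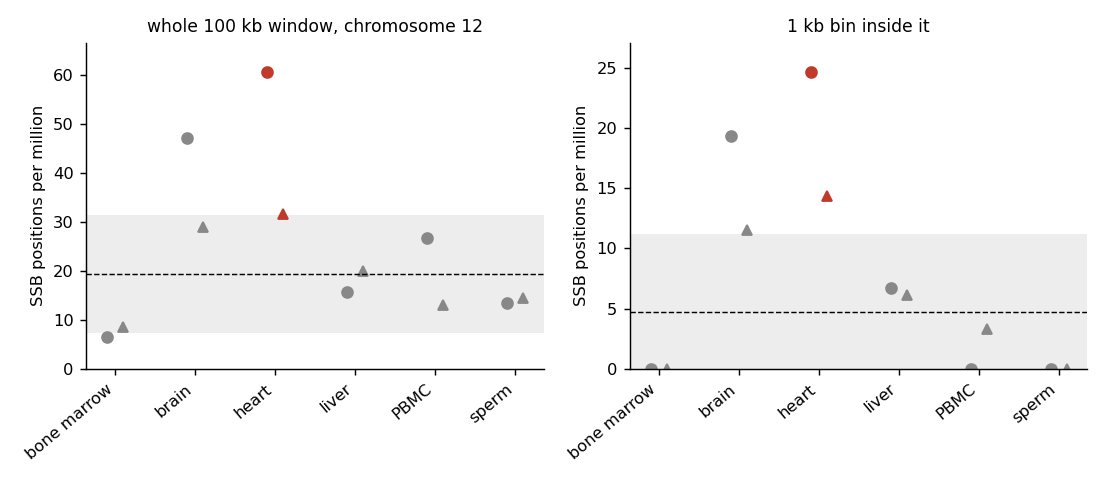
SSB positions per 1000000 positions of the library (ppm, vertical axes) in a gene-free 100 kb window of chromosome 12 (left) and in 1 bin of 1 kb inside it (right) for the 12 SSB libraries by tissue, with replicate 1 as circles, replicate 2 as triangles, heart in red, and the mean ± SD of the 10 other libraries as dashed line and band. In the bin, heart had 24.6 and 14.4 and brain 19.4 and 11.6 ppm, while bone marrow and sperm had 0.

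Other windows at the top of the order did not pass either, with adjusted p from 0.474 to 0.504. On the higher side was chr4:155800001-155900000, with Ccnl2, Dvl1 and other genes packed closely, at 159 and 120 ppm in heart and 57.4 to 174 elsewhere. The window from 117100001 on chromosome 11, with Sec14l1 and the septin gene Septin9, had 112 and 118 ppm in heart and 59.9 to 107 elsewhere. On the lower side the window from 128500001 on chromosome 6, with the protease inhibitor gene Pzp, had 17.9 and 33.6 ppm in heart and 29.3 to 83.0 elsewhere. The window of Barx2 on chromosome 9 had 15.7 and 34.6 against 35.6 to 72.0, and that of Itgb3 on chromosome 11 had 33.6 and 32.6 against 40.4 to 85.0.

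As with genes, the windows with the most SSB positions in heart mostly had mean shares close to the mean elsewhere. The largest ratio of means was 1.49, in the window from 155800001 on chromosome 4 named above. Single tissues could still differ, as for the window of Rn18s-rs5 in the contrasts below. The window of Sfi1, from 3100001 on chromosome 11, had 1351 and 1215 ppm in heart and 1349 ± 111 (SD, n = 10) elsewhere. The window from 39800001 on chromosome 17, which holds the ribosomal RNA gene Rn18s-rs5, had 710 and 624 ppm, and the other libraries ranged from 386 to 1174. The Ugt1a cluster of glucuronosyltransferases, from 88200001 on chromosome 1, had 325 and 353 ppm against 387 ± 46.6 (SD, n = 10). The copy of mitochondrial DNA in the nuclear genome, from 24600001 on chromosome 1, had 29.1 and 36.5 ppm in heart and 29.5 ± 10.9 (SD, n = 10) elsewhere and heart lay inside their range of 8.48 to 44.3. Across the 21 chromosomes none passed for heart (0%, exact permutation test over libraries, every adjusted p = 0.985).

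Heart was also set against each tissue in turn, a comparison added after the data were seen, in which the same 2 heart libraries enter every contrast. Against bone marrow, 38 genes (0.0987%) passed, all with more SSBs in heart, at log2 differences from 0.48 to 2.30. Among them were Dmd (log2 difference 0.76, edgeR adjusted p = 0.00147) and Ptprm (0.56, edgeR adjusted p = 0.0115). Neither passed against any other single tissue, and Nxnl1 passed against none. Ptprd, Rbfox1, Lsamp and Tenm2, named above for their heart positions, were also among the 38. The 38 were long genes, with a median length of 1011 kb and 29 of them over 500 kb, where 236 of all 49943 RefSeq genes were. Long genes hold more positions, so a given difference passes more readily in them. The effect of length was not tested. Against brain the gene Susd6 alone passed (0.0026%), with a log2 difference of 1.38 (edgeR, adjusted p = 0.0072), and against liver, PBMCs and sperm no gene passed (0%), with 1369, 1633 and 1768 at an unadjusted p under 0.05. By windows, 45 (0.174%) passed against bone marrow, of which 43 were lower in heart. The window of Rn18s-rs5 was among these (log2 difference -0.82, adjusted p = 7.04e-15), and it was the 1 window (0.00386%) higher in heart than in PBMCs (log2 difference 0.61, adjusted p = 0.00272). Against sperm 6 windows passed (0.0231%), and against brain and liver none (0%).

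Set beside the same test for the other tissues, heart came after bone marrow and sperm in the number of genes that passed, and tied with brain for the fewest windows. Bone marrow against the mean of the others gave 73 genes, 64 of them lower in bone marrow, and 345 windows, 327 of them higher there. Sperm gave 8 genes and 10 windows. Heart gave 3 genes and 0 windows, PBMCs and liver each gave 0 genes and 1 window, and brain gave 0 of both. These contrasts share all of their libraries.

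The third comparison asked on what sequence the SSBs of heart fell. The sequence around a break could be read where it lay in a promoter of the RefSeq table of GRCm38.p6, from 250 bases before to 50 bases after a gene's start, which covered 4759 positions of heart replicate 1 and 10955 of heart replicate 2. Offsets were counted from the listed nucleotide on the listed strand, called the strand of the break here, and the measure was chosen after the data were seen. Which side of the break the nucleotide and strand stand for is not given in the sources used here. If the listed strand is the complement of the broken one, a cytosine before the listed nucleotide is a guanine after it on the broken strand. The nucleotide 2 before the listed one was a cytosine at 46.2% of promoter breaks in heart replicate 1 and 46.9% in heart replicate 2 (95% Wilson intervals 44.8 to 47.6 and 46.0 to 47.8, which cover counting error only). Brain had 43.7% and 41.1%, liver 42.5% and 43.6%, sperm 40.6% and 40.2%, bone marrow 40.2% and 40.3%, and PBMCs 33.1% and 31.3%. Both heart libraries were thus above all 10 others, whose mean was 39.7% ± 4.18 (SD, n = 10). The difference of 6.89 percentage points had p = 0.0303 in an exact two-sided permutation test over 66 choices of 2 of the 12 libraries and 0.162 after adjustment over 16 measures. The smallest p this permutation allows was 0.0152. It shuffled single libraries and did not take the tissue as the unit, although the 2 libraries of most tissues lay close together. The p therefore does not measure how rarely 1 tissue would come out highest.

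Guanine at the same place moved the other way, with 28.9% and 27.8% in heart and 29.5% to 41.3% in the others, so that heart was below all 10 (exact permutation test, p = 0.0758, adjusted p = 0.242). Relative to the bases farther from the break, cytosine at that place was 1.53 and 1.54 times as frequent in heart and 1.07 to 1.45 times as frequent elsewhere (p = 0.0455, adjusted p = 0.182, exact permutation test). At the nucleotide directly before the break, cytosine was the most frequent base in heart, at 54.5% and 57.1%, and there the other libraries overlapped it, at 46.8% to 57.7%. Adenine stood there at 4.75% and 4.23%. The pair CC came before 28.0% and 30.5% of promoter breaks in heart and 17.6% to 29.6% in the others (exact permutation test, p = 0.152). In the AP maps of heart the nucleotide 2 before the listed one was a cytosine at 50.9% and 53.4%. That was inside the range of the AP maps of the other tissues, from 50.35% in liver replicate 1 to 56.36% in bone marrow replicate 1.

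**Figure D4:**
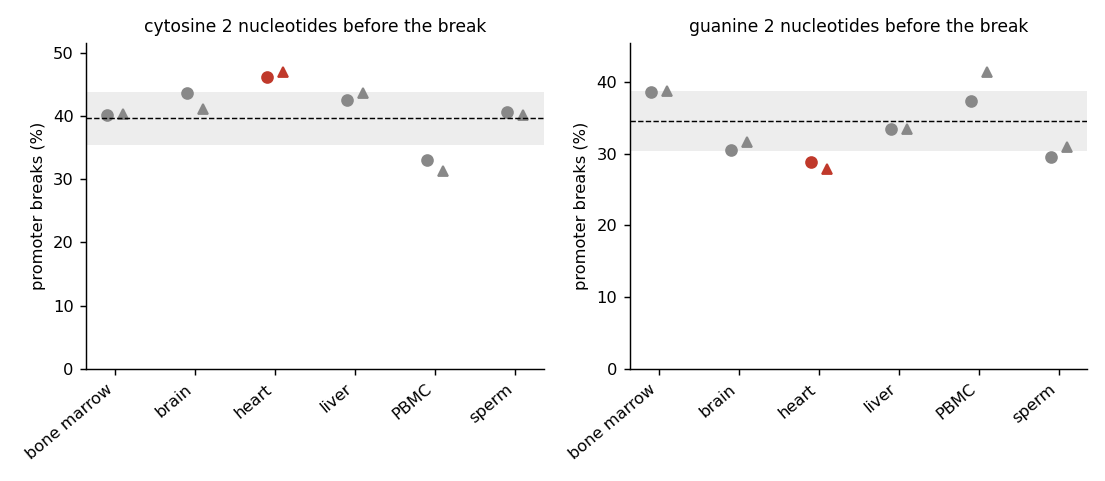
Percentage of promoter SSBs with a cytosine (left) or a guanine (right) 2 nucleotides before the listed nucleotide (vertical axes) in the 12 SSB libraries by tissue, with replicate 1 as circles, replicate 2 as triangles, heart in red, and the mean ± SD of the 10 other libraries as dashed line and band. Heart is highest for cytosine, at 46.2% and 46.9%, and lowest for guanine, at 28.9% and 27.8%. PBMCs are lowest for cytosine, and PBMCs and bone marrow are highest for guanine, at 37.4% to 41.3%.

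In promoters of protein-coding genes 30 nucleotides carried an SSB in both heart libraries, and 1 of these, in the promoter of Mga, was also listed in another SSB library. Of the 30, 20 had a cytosine 2 nucleotides before the break, 21 had one directly before it, and 14 had both. The 12 with the most counts in heart, then in order of chromosome and position, are shown because they let the context be read directly. Each line gives the gene whose promoter it is and 21 bases of RefSeq sequence on the strand of the break, with the listed nucleotide in the middle and the 2 bases before it in capitals.
Sys1: gagggaaaGGggtggaaggtc
Odf2l: gctagtaaCCggcctgcggtt
Fam185a: ttgctttcCCgttgcttcaag
Dpm2: taggccttTCcggcttgtaaa
Mettl5: tgcctctaGCtggtcctcgcg
Ckap5: aggacactGCggggtgtgcgg
Mga: gggcggaaCCcaagggtcctg
Ciart: gtctgtgtACgcagggggagg
Gstcd: cgggggacCGggaccgtggaa
Dennd4c: ttccctccCTccgtccctctc
Golga3: cctctcttCCggaacgaagac
Zbed5: aatgcggtGCcactgcgtacc

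Of these 12, the capitals read CC in 4 and end in C in 9. The first, in the promoter of Sys1, a gene of Golgi traffic, reads GG and had counts of 2 and 1 in the heart libraries, and those of Odf2l and Fam185a read CC and had summed counts of 3 as well. The others had 1 count in each heart library. A position listed in both libraries of heart was rare everywhere, which is described with the recurrence below.

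Promoters held few breaks each. Of 21263 promoter entries of protein-coding genes, 9054 had at least 1 heart SSB, 156 had at least 5, and the most was 9, in those of Mga, H2ac21, Dennd4c and Tmem59. Their sequences up to the start are shown for the first 2 in order of chromosome, so that the spacing of the breaks can be read. Capitals mark each nucleotide with a heart SSB on either strand, and the sequence is that of the plus strand of GRCm38.p6, on which both genes lie, at chr2:119896978-119897227 for Mga and chr3:96219635-96219884 for H2ac21.
Mga: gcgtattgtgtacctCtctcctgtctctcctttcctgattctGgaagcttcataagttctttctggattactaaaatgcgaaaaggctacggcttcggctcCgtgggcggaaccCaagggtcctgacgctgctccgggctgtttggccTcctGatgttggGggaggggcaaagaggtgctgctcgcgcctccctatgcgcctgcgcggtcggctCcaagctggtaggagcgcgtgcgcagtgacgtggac
H2ac21: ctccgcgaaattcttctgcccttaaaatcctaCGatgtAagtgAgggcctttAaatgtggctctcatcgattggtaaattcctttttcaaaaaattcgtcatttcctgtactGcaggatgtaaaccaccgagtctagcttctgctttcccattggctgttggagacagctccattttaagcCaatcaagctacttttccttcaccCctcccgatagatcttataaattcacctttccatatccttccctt

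Mga encodes a DNA-binding partner of MAX, and its promoter had 2 and 7 positions in heart, or 4.48 and 6.72 ppm, inside the range of the others, whose highest was 8.89. H2ac21 encodes a histone H2A, and its promoter had 3 and 6 positions in heart, or 6.72 and 5.76 ppm, above a mean of 1.36 and a highest value of 4.24 elsewhere. Dennd4c, a regulator of Rab proteins, and Tmem59, a membrane protein, each had 2 and 7, or 4.48 and 6.72 ppm, against at most 4.48 and 4.24 ppm in any other library. These promoters were picked for their number of heart breaks, so their values are a description.

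Around gene starts in general heart was not set apart. Within 500 bp of 17492 starts of protein-coding genes the density of SSBs was 2.72 and 2.64 times that of the flanks 5 to 10 kb away in heart, and 1.89 to 3.51 times in the others (exact permutation test, p = 0.606). At gene ends the density was 1.20 and 1.21 times that of the flanks. Near the starts of 48 cardiac muscle genes, within 1 kb, heart had 46 and 142 positions, or 103 and 136 ppm, where the others had 53.3 to 129. In both places a heart library lay within the range of the other tissues.

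Genes as a whole held 61.0% and 60.9% of the heart SSBs, against 61.3% ± 1.07 (SD, n = 10) elsewhere (p = 0.576, exact permutation test). On the transcribed strand of genes that overlap no other lay 46.1% and 46.3% in heart, against 45.8% ± 1.08 (SD, n = 10), whose highest was 47.2%. What the listed strand stands for, the broken strand or its complement, is not given in the sources used here, and if it is the complement, these are the shares on the other strand. Genes over 500 kb, 236 in number, held 7.50% and 7.55% in heart and 7.49% ± 0.542 (SD, n = 10) elsewhere. The 20% of windows with the most bases in protein-coding genes held 23.8% and 23.8% against 24.0% ± 0.297 (SD, n = 10). None of these measures passed for heart.

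The fourth comparison concerned the count column, the number of times a break was counted at a position. In heart 3541 positions (0.793%, 95% Wilson interval 0.768 to 0.820) of replicate 1 and 12784 (1.23%, 1.21 to 1.25) of replicate 2 had a count above 1. The 10 other libraries had 0.393% ± 0.226 (SD, n = 10), from 0.140% in bone marrow replicate 2 to 0.827% in sperm replicate 1, which was above heart replicate 1. The difference in means was 0.617 percentage points. Heart was taken up with this share already known to be high, so it is given as a description with no test. Such a share grows with depth, and when every library was thinned to 226459 counts, heart had 0.414% and 0.263% and the others 0.266% ± 0.193 (SD, n = 10), from 0.0884% to 0.555%. At equal depth heart lay above bone marrow, brain and liver, which had at most 0.143%, and below both sperm libraries and PBMC replicate 1.

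**Figure D5:**
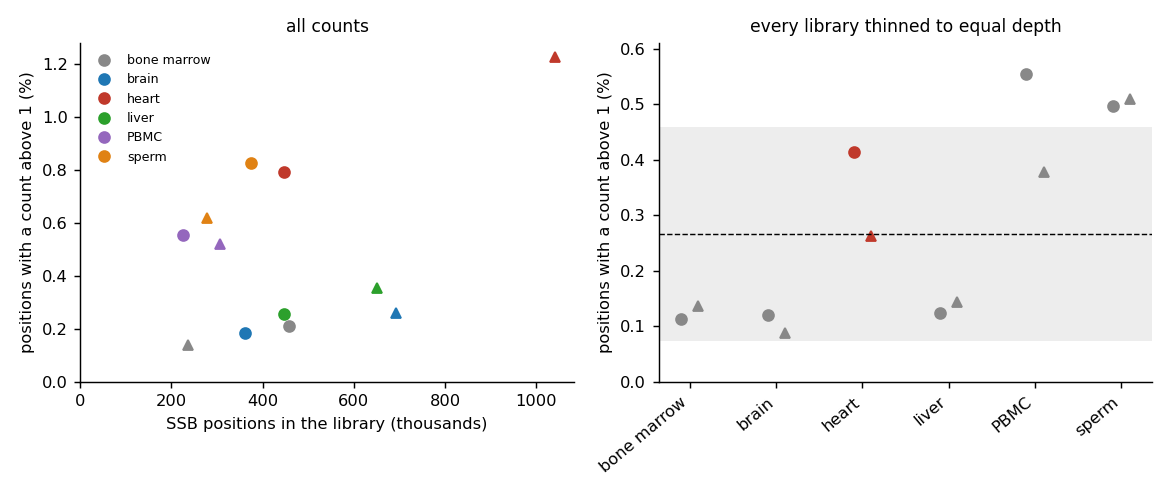
Percentage of SSB positions with a count above 1 (vertical axes) in the 12 SSB libraries, on the left against the number of positions in the library (axis in units of 1000) and on the right by tissue after all libraries were thinned to the depth of the smallest, with replicate 1 as circles and replicate 2 as triangles. Heart had 0.793% and 1.23% before thinning and 0.414% and 0.263% after it, when 3 of the other libraries were above both heart libraries.

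Positions with a count above 1 in heart mostly had a count of 2, which 3490 and 12534 of them did, while 51 and 250 had more. They were spread over the genome, in 3177 of 25671 windows with positions in replicate 1 and 9157 of 25917 in replicate 2, with at most 23 and 64 in any window. In genes lay 61.0% and 62.0% of them, close to the 61.0% and 60.9% of positions counted once. Another break lay within 10 bp on the same strand at 6.61% and 9.33% of them and at 3.38% and 5.34% of the rest. In the other libraries it was 5.34% to 10.5% of such positions and 0.825% to 3.37% of the rest. These shares grow with depth and were taken without thinning, so they do not set heart apart from smaller libraries. Close breaks at equal depth are given below. In promoters CC came before 35.2% (19 of 54, 95% Wilson interval 23.8 to 48.5) and 48.9% (86 of 176, 41.6 to 56.2), beside 27.9% and 30.2% at positions counted once, a value that the interval of replicate 1 covers and that of replicate 2 does not. Their density at gene starts was 3.79 and 3.28 times that of the flanks, beside 2.71 and 2.64 times.

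The highest counts in heart fell on nucleotides that were high in every SSB library. The nucleotide 98667333 on the plus strand of chromosome 2 had counts of 35 and 71, 72297177 on the minus strand of chromosome 10 had 42 and 46, and 104428093 on the plus strand of chromosome 7, in Trim30a, had 29 and 39. Each was listed in all 10 other SSB libraries. The top counts were thus shared by all tissues.

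Some SSBs of heart lay close to another of the same library. At equal depth, in replicate 1, 1.98% of positions had another within 10 bp, and in replicate 2 it was 1.53%, against 1.43% ± 0.645 (SD, n = 10) and a range of 0.821% to 2.31% (exact permutation test, p = 0.455). The pairs were mostly on the same strand, 2013 and 1469 of them beside 300 and 300 on opposite strands, and 58.4% and 56.8% of the same-strand pairs were neighbouring nucleotides. Bone marrow, brain and liver had 685 to 945 same-strand pairs and PBMCs and sperm 1763 to 2476, so heart replicate 1 lay with the latter and heart replicate 2 between both.

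The same break was seldom found again. The heart libraries shared 1124 positions, 0.252% of the smaller library, and at equal depth they shared 114, or 0.0507%. A heart library and one of another tissue shared 0.0396% to 0.0622% at equal depth, so heart did not recur in itself more often than in the other tissues. With the AP maps of heart the heart SSB libraries shared 0.0768% to 0.119% of the smaller library, without thinning.

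Over 25776 windows at equal depth the rank correlation of positions per window was 0.730 between the heart libraries. The mean correlation of a heart library was 0.748 with bone marrow, 0.735 with brain, 0.734 with liver, 0.730 with PBMCs and 0.702 with sperm, the one tissue whose pairs with heart all lay below the value between the heart libraries. These are correlations across windows, which share depth and base composition and are not independent, so they carry no test. The 2 heart libraries differed from each other by little more than counting error, with a chi-square per window of 1.02, where 1 would be counting error alone.

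AP sites of heart gave no windows either. Of 26003 windows tested for AP sites none passed (0%, edgeR), with 589 higher (2.27%) and 486 lower (1.87%) at an unadjusted p under 0.05, and DESeq2 passed none, with 100 at that p. The chromosome 12 window had 19.4 and 15.9 ppm of AP positions in heart, inside the range of 10.3 to 26.1 in the other tissues.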

How the data were processed

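SSB and AP positions were mapped by the authors with SSiNGLe and SSiNGLe-AP, and the deposited files list 1 position per line with its strand and a count of the breaks found there, in GRCm38 (mm10) per the labels. The aligner and filters are not given in the sources used here. RNA samples were not analysed here. The labels also name RSEM version 1.2.28, an RNA tool.

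Positions on either strand were counted per whole RefSeq gene and per 100 kb window. Genes and windows that held a position in 20% or more of the 12 SSB libraries were tested with edgeR 4.0.16 in R 4.3.3 (quasi-likelihood F test, TMM, library size of all positions, heart minus the mean of the 5 other tissues, Benjamini-Hochberg, threshold 0.05). DESeq2 1.42.0, no TMM, equal depth, summed counts, other filters, leaving out libraries or tissues, and a replicate block were alternatives. Single measures had an exact permutation test over libraries. LPKM was computed from positions, gene length and library size. AP maps had the same test.

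On simulated data made from the libraries, with 200 changed features of at least 20 positions on average, the SSB gene test recovered 57.5% of 1.5-fold and 98.5% of 2-fold changes, and the window test 35% and 98.5%. The simulated counts had a spread set by hand and no differences among the other tissues, so these rates hold for that setting only. SSB libraries held between 225011 and 1041983 positions, and AP libraries between 460719 and 963258.

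The members and the 9 gene lists were chosen with earlier results of these data known. Genes and windows named are those that passed, the nearest on each side, those with the most heart positions, and, in each list, those with the most heart positions, of which 1 is not reported here. Gene strands came from the RefSeq promoter table.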

Additional observations from a re-analysis of the deposited data

How the results depend on the processing

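Dmd, Ptprm and Nxnl1 stayed higher in heart in every alternative that could test them, yet few alternatives passed them. No gene passed with DESeq2, at equal depth, without TMM, with relative log expression size factors, with features kept that held a position in 80% of libraries or more, with summed counts, on autosomes alone, with the other tissues as 1 group, or without bone marrow, brain, PBMCs or sperm (0 genes in each), and 1 passed without liver. The 3 became 2 without a filter on low counts. Leaving out 1 library gave 0 to 2 genes, and 0 without either heart library. Of the windows 1 passed without bone marrow, 1 without brain, 3 with summed counts, and 0 to 1 when 1 library was left out (1 without heart replicate 2, in chromosome 12). For AP windows that range was 0 to 1, the 1 without liver replicate 1. The small difference in genes over 500 kb changed sign at equal depth (-0.0352 percentage points), with genes over 200 kb (-0.0556) and when bone marrow replicate 1 was left out, with a range of -0.0721 to 0.125 over libraries left out. Recurrence between the heart libraries was 0.252% over all positions and 0.0507% at equal depth. With the replicate number as a block, 2 genes and 1 window passed. Differences between replicates 2 and 1 had correlations from -0.0132 to 0.0104 between tissues over 19120 windows. The libraries of a tissue differed by about counting error alone (chi-square per window from 0.995 in liver to 1.04 in bone marrow). These correlations therefore cannot tell whether a replicate number stands for the same animal. The numbers were not taken as pairs because nothing states that they are. A tested gene held a median of 3 and 6 positions in the heart libraries, and how well the test works in genes under a mean of 20 positions was not examined. The causes of these changes were not tested.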
